A study of Mus musculus with 6 samples.

Results

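Genes that copy DNA were followed in the mouse heart late in gestation, on embryonic days 16.5 (E16.5) and 18.5 (E18.5). The genes are 39 that encode the replication machinery and its S-phase control, listed by name and function, and all 39 were found among the 31529 genes of the table and passed the filter on low counts. Hearts came from wild-type (WT) ICR mice, an outbred stock, with 3 libraries of polyadenylated RNA at each stage. The stages differ in age alone as far as the labels tell, no agent or allele was given to either, and the sources used here do not say whether a library is 1 heart or several, nor from which litters. If libraries shared a litter or a pool, p-values measure only the spread between these samples. The RNA came from whole heart, so fewer cells of a type and less RNA per cell cannot be told apart in any value that follows.

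DNA replication starts when the origin recognition complex, with Cdc6 and Cdt1, loads the ring of Mcm2 to Mcm7 onto DNA in G1 phase. In S phase Cdc45 and the GINS tetramer join the ring to make the active helicase, polymerases alpha, delta and epsilon copy the strands, the clamp Pcna keeps polymerases on DNA, and Chaf1a and Chaf1b place histones on the new strands. Many of these genes are known targets of E2F transcription factors. Heart muscle cells divide in the fetus, and in mice most of them stop dividing in the first days after birth.

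Sequence around the starts is shown first, since many of these genes are known E2F targets. Among the 250 bases before each RefSeq start on GRCm38.p6, the letters TTTCCCGC, TTTGGCGC, TTTCGCGC or TTTGCCGC, all forms of the E2F consensus, were searched on both strands. At least 1 of them stood in 10 of the 37 windows of the 32 members matched by symbol, which is 27.0%, against 1.86% of the 32851 windows of all genes. CCAAT, the letters bound by NF-Y, stood in 62.2% of the members' windows and in 33.8% of all. TTTGAA or TTCGAA, known as the cell cycle homology region of mitotic promoters, stood in 18.9% and 17.1%. Mcm4, Gins1, Gins2, Gins4, Pole, Prim2 and Ccne2 had no window and were not searched. A match of letters is a description of the window and not evidence of binding.

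The helicase genes Mcm6 and Mcm5 held 3 and 2 matches, the most among the members that had a window. Their windows are printed 5′ to 3′ on the strand of the gene with the matches in capitals. Overlapping matches run together: those of Mcm6 begin 110, 106 and 47 bases before the start, and those of Mcm5 153 and 149 bases before it. These distances are to the RefSeq start of the table; the bases after that start did not match, as an unbroken run, a transcript of either gene, and the GENCODE M21 models start further downstream, at 128359664 (Mcm6) and 75109569 (Mcm5). Mcm6 lies on the minus strand (chr1:128359706-128359955) and Mcm5 on the plus strand (chr8:75109259-75109508).
Mcm6: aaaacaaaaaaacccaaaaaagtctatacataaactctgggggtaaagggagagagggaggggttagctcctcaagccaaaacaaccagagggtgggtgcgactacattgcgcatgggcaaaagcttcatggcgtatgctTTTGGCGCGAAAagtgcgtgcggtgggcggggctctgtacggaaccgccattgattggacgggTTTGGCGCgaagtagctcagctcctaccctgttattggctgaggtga
Mcm5: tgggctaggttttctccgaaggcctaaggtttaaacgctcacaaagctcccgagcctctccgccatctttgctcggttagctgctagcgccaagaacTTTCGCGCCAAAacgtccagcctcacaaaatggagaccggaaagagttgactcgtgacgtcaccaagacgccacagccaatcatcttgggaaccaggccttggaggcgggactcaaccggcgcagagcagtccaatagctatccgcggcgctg

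The other 8 members with a match had 1 each, shown as 30 bases around it with the match in capitals. Their products act in origin binding (Orc1), loading (Cdc6), the helicase (Mcm7, Gins3), priming (Pola1), clamp loading (Rfc3), the marking of Cdt1 for destruction (Dtl) and the upkeep of DNA methylation (Uhrf1). No window of the clamp Pcna, of Fen1 and Lig1, of Rrm1 and Rrm2 or of Chaf1a and Chaf1b held these letters. In Dtl and Rfc3 the match begins 8 and 10 bases before the start, and in Uhrf1 185 bases before it, so the position was not shared. By the GENCODE M21 gene models, which can start elsewhere than RefSeq, the matches of Orc1, Cdc6, Mcm7, Gins3, Rfc3 and Uhrf1 lie within the gene and not upstream of it, and the whole window of Mcm7 is exonic. The stretches lie at chr4:108579416-108579445 (Orc1, plus), chr11:98908002-98908031 (Cdc6, plus), chr5:138172030-138172059 (Mcm7, minus), chr8:95633507-95633536 (Gins3, plus), chrX:93632275-93632304 (Pola1, minus), chr5:151651209-151651238 (Rfc3, minus), chr1:191575545-191575574 (Dtl, minus) and chr17:56304117-56304146 (Uhrf1, plus).
Orc1: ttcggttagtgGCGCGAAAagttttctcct
Cdc6: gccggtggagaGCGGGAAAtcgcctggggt
Mcm7: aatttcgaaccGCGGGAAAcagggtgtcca
Gins3: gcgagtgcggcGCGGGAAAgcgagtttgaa
Pola1: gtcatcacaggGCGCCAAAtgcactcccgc
Rfc3: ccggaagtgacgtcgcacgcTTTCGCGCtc
Dtl: caatcagaaagcgtgacgtcagTTTGGCGC
Uhrf1: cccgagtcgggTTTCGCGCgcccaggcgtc

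Library totals ran from 61443414 to 77237333 estimated counts, and the members had 193 to 6149 counts in a library. Levels are given as CPM (counts scaled to the library's size by TMM) for comparisons of libraries, and as FPKM, which allows for transcript length, for comparisons of genes. Where a stage has 3 values in a row, they stand for replicates 1, 2 and 3 in that order. Cardiac troponin T (Tnnt2), a defining marker of heart muscle, was at 4745 to 6159 CPM over the libraries. Mitochondrial genes took 19.9% of the counts in E16.5 replicate 2, the lowest share, and 41.4% in E16.5 replicate 1, the highest. E16.5 replicate 2 correlated more closely with E18.5 replicates 2 and 3 (Pearson r of 0.946 and 0.947 over log2 CPM of all genes tested) than with E16.5 replicates 1 and 3 (0.926 and 0.925). Several members are therefore also given without that library.

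No member passed edgeR's test of stage over all genes. By CPM, Mcm7, Gins1, Gins2, Gins4 and Rfc3 lay lower in every E18.5 library than in any E16.5 library, an order seen in 8.02% of all genes. Of 39 members, 0 had an adjusted p under 0.05 by edgeR's quasi-likelihood test, against 0.15% of the 19959 genes tested (30 genes). DESeq2 called 1 member, Gins2, as lower, and it called 343 genes in all. At an unadjusted p under 0.05, 4 members were lower (10.3%) and 0 higher, where 4.7% of all genes were lower and 4.83% higher. The median log2 change of the members, E18.5 minus E16.5, was 0.03, with 22 above and 17 below 0, and the median of all genes tested was -0.0019. In 5 members all E16.5 libraries lay above all E18.5 libraries (12.8%, against 8.02% of all genes), and in 1 member the order was the opposite (2.56%, against 8.45%).

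**Figure D1:**
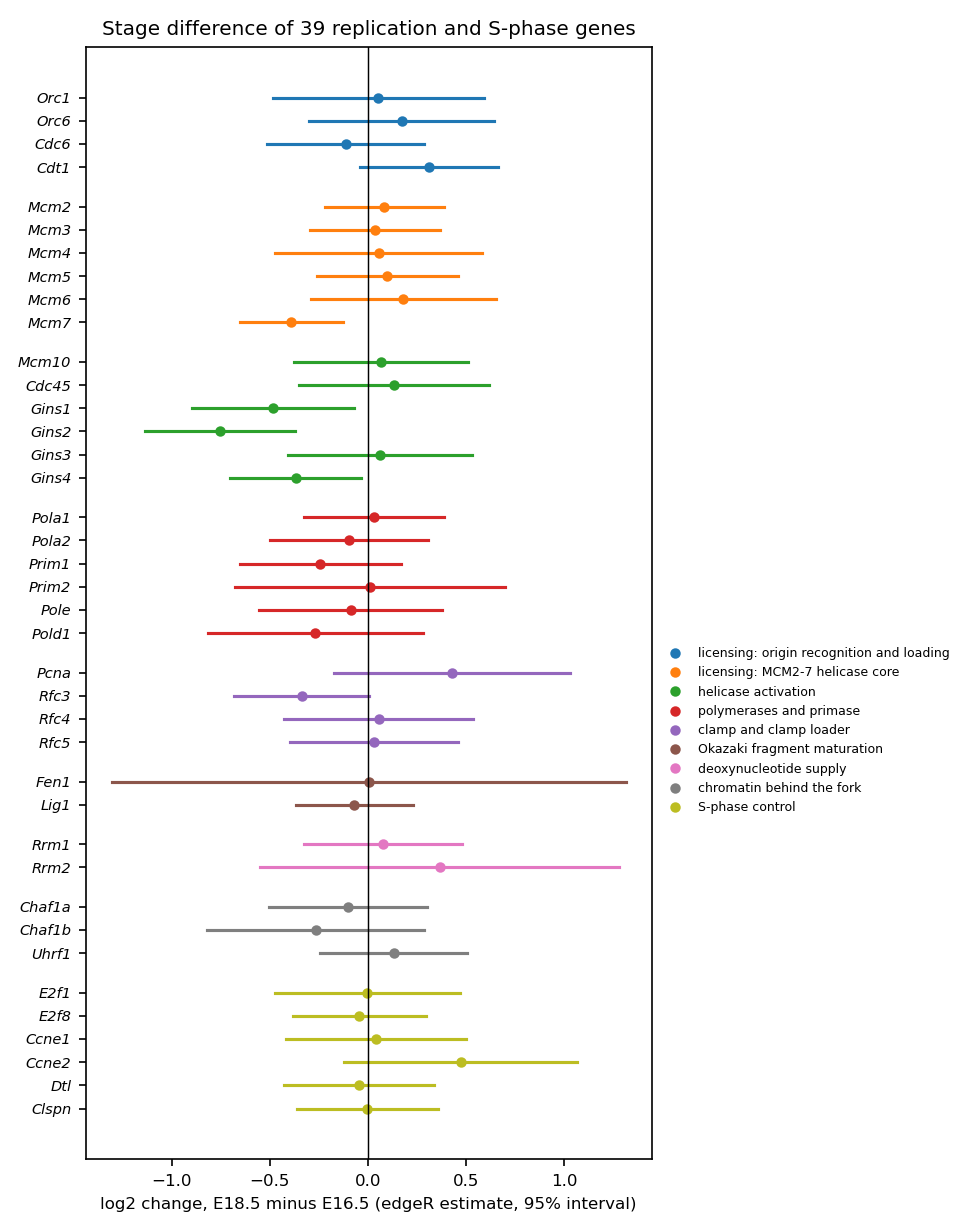
Log2 change of each of the 39 genes, E18.5 minus E16.5, with points for the edgeR estimate and lines for its 95% interval, coloured by role. Intervals lie wholly below 0 for Mcm7, Gins1, Gins2 and Gins4, none lies wholly above 0, and that of Fen1 is the widest.

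Among genes that license origins, Cdt1, which brings the Mcm ring to DNA, was the 1 member whose E18.5 libraries all lay above those of E16.5 by CPM. By FPKM its stages overlapped, with E16.5 replicate 2 at 4.89 and E18.5 replicate 1 at 4.71. Cdt1 stood at 13.9, 13.7 and 15.3 CPM at E16.5, then at 17.3, 20.2 and 15.7 CPM at E18.5. The gap between the nearest libraries, E16.5 replicate 3 and E18.5 replicate 3, was small, and the log2 change was 0.31 ± 0.15 (SE, here and for each log2 change that follows) with an adjusted p of 0.556 (edgeR). Gmnn encodes geminin, the protein that binds Cdt1 and blocks a further round of loading. Values of Gmnn were 19.8, 25.4 and 13.4 CPM in the E16.5 libraries, against 28.3, 24.4 and 31.5 CPM in the E18.5 libraries. Its libraries overlapped between stages, and the log2 change was 0.52 ± 0.23 (adjusted p = 0.526, edgeR).

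Orc6, a subunit of the origin recognition complex, had the highest level per length of its group, a mean of 9.80 FPKM over 6 libraries. Orc6 was at 29.4, 19.0 and 26.7 CPM in the E16.5 libraries, against 34.2, 26.8 and 23.5 CPM in the E18.5 libraries. The lowest library was of E16.5 and the highest of E18.5, the stages overlapped, and the log2 change was 0.17 ± 0.21. The largest subunit, Orc1, and the loader Cdc6 were much scarcer per length, at 1.24 and 1.204 FPKM, with log2 changes of 0.053 ± 0.24 and -0.11 ± 0.17. Orc5, a further subunit outside the 39, was at 14.5 to 19.9 CPM in E16.5 libraries, against 13.1 to 14.3 CPM in E18.5 libraries, without overlap, and did not pass (adjusted p = 0.547, edgeR).

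The subunits of the Mcm2 to Mcm7 ring, which the assembled helicase holds in equal number, did not share a direction between the stages. Mcm7 (ENSMUSG00000029730, GRCm38 chromosome 5, 138164583 to 138172422, minus strand) stood apart from the other subunits in its values. The E16.5 libraries had Mcm7 at 62.9, 57.7 and 59.4 CPM, and the E18.5 libraries at 47.6, 45.8 and 44.02 CPM. The stages did not overlap, and the log2 change was -0.39 ± 0.11, with an unadjusted p of 0.00845 and an adjusted p of 0.338 (edgeR). With the mitochondrial share as a term the adjusted p was 0.0934, and without E16.5 replicate 2 it was 0.0740, the lowest over the alternatives tried (highest 0.873).

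The other subunits had log2 changes between 0.036 and 0.18, and their stages overlapped. Mcm2 stood at 20.6, 18.2 and 21.1 CPM at E16.5, then at 20.3, 21.6 and 21.5 CPM at E18.5. This narrow range, 1.19-fold from the lowest library to the highest, put Mcm2 among the steadiest members. Values of Mcm5 were 25.1, 18.4 and 19.6 CPM in the E16.5 libraries, against 23.4, 21.7 and 22.5 CPM in the E18.5 libraries. Here E16.5 holds both the lowest library, replicate 2, and the highest, replicate 1.

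Mcm3 was at 27.7, 36.8 and 31.9 CPM in the E16.5 libraries, against 31.8, 35.7 and 31.4 CPM in the E18.5 libraries. E16.5 replicates 1 and 2 are the extremes of Mcm3, and E18.5 lies between them. Values of Mcm4 were 16.5, 31.7 and 26.5 CPM in the E16.5 libraries, against 26.7, 28.3 and 22.6 CPM in the E18.5 libraries. The order of those replicates was that of Mcm3, with a wider gap. Mcm6 stood at 21.2, 26.1 and 32.9 CPM at E16.5, then at 24.8, 29.1 and 36.9 CPM at E18.5. Replicate 3 was the highest library of Mcm6 at each stage.

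As a share of the summed FPKM of the subunits, Mcm7 made up 35.5%, 29.3% and 30.3% in the E16.5 libraries, against 26.4%, 24.3% and 24.1% in the E18.5 libraries. It was the most abundant subunit per length in each library of both stages. Mcm2 was the scarcest at both stages, at 6.70% ± 0.769 and 7.31% ± 0.172 (SD, n = 3). Mcm7 shares 321 exonic bases with Ap4m1 on the other strand, a gene with 156% of its counts, and the sources used here do not give whether the authors counted by strand. Ap4m1 was at 67.3 to 112 CPM in E16.5 libraries, against 66.1 to 84.4 CPM in E18.5 libraries, with a log2 change of -0.36 ± 0.20. Its part in the values of Mcm7 was not tested.

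The GINS complex, made of the products of Gins1 to Gins4, travels with the helicase at the fork. By CPM, 3 of its 4 genes were lower in every E18.5 library than in any E16.5 library, an order seen in 8.02% of all genes. Gins2 (ENSMUSG00000031821, chromosome 8, 120578633 to 120589304, minus strand) had the smallest p of all members. Gins2 was at 46.0, 39.3 and 42.1 CPM in the E16.5 libraries, against 21.8, 31.1 and 22.6 CPM in the E18.5 libraries. E18.5 replicate 2 came closest to E16.5, and the fold, E16.5 over E18.5, was 1.69 (log2 change -0.76 ± 0.17). By edgeR the unadjusted p was 0.00172 and the adjusted p 0.185. The adjusted p was 0.0128 in DESeq2, where Gins2 was the 1 member among 343 genes called. Over the alternatives the adjusted p ran from 0.0128 to 0.723.

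Gins1 (chromosome 2, 150905400 to 150931280, plus strand) showed the second largest negative change. Values of Gins1 were 14.0, 9.97 and 13.1 CPM in the E16.5 libraries, against 8.18, 9.03 and 9.30 CPM in the E18.5 libraries. Between E16.5 replicate 2 and the E18.5 libraries the gap was narrow, and the log2 change was -0.48 ± 0.18, with an adjusted p of 0.444 (edgeR). Gins4 stood at 13.8, 13.7 and 12.7 CPM at E16.5, then at 10.9, 10.8 and 9.51 CPM at E18.5. Spread within each stage of Gins4 was small, and the log2 change was -0.37 ± 0.15, with an adjusted p of 0.479 (edgeR). Gins3, the fourth subunit, differed from these in its values: 9.28, 7.58 and 10.97 CPM in the E16.5 libraries, against 9.03, 8.49 and 11.5 CPM in the E18.5 libraries. Its stages overlapped and its log2 change was 0.062 ± 0.20. The difference between Gins3 and the other subunits was not tested. In FPKM the stages of Gins4 overlapped, at 7.54, 11.4 and 7.89 in the E16.5 libraries, then at 6.89, 7.96 and 7.16 in the E18.5 libraries.

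Gins2 has a long shared stretch with a neighbour. It overlaps Gse1 on the other strand by 2758 exonic bases of its 4097, and Gse1 held 249% of its counts. Gse1 was at 68.1 to 102 CPM in E16.5 libraries, against 67.0 to 98.1 CPM in E18.5 libraries, so that its stages overlapped, with a log2 change of -0.077 ± 0.20. How reads of the shared stretch were divided was not tested. The rest of the helicase activation group was level: Mcm10, which helps the helicase start, had a log2 change of 0.068 ± 0.19, and Cdc45 one of 0.13 ± 0.21.

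**Figure D2:**
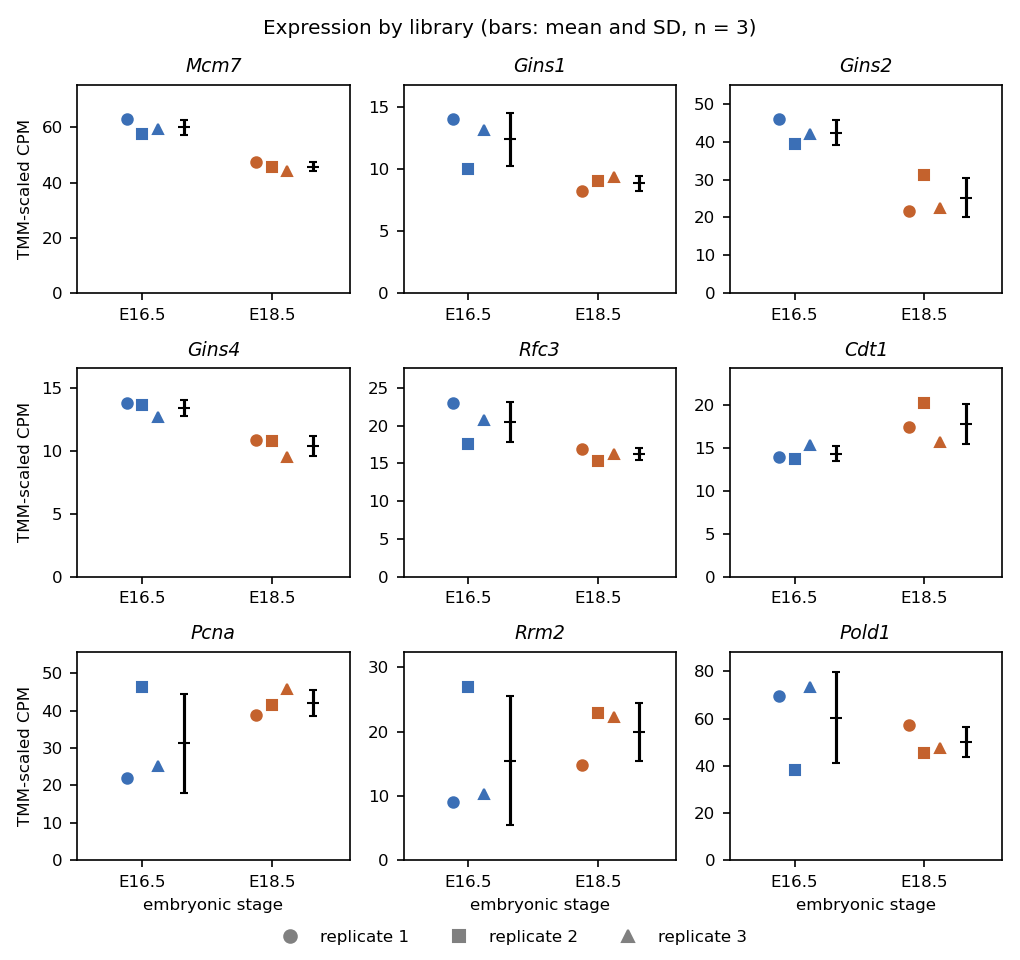
TMM-scaled CPM of 9 genes by library and stage, with 1 symbol shape for each replicate and black bars for the mean and SD of 3 libraries; each vertical axis starts at 0. Stages do not overlap for Mcm7, Gins1, Gins2, Gins4, Rfc3 and Cdt1, while E16.5 replicate 2 (square) is high for Pcna and Rrm2 and low for Pold1.

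No polymerase or primase gene separated the stages, and in several of them E16.5 replicate 2 stood apart from the other E16.5 libraries. Pold1, the catalytic subunit of polymerase delta that copies the lagging strand, had the highest level per length in the group (10.2 FPKM). Pold1 was at 69.4, 38.3 and 73.6 CPM in the E16.5 libraries, against 57.4, 45.3 and 47.7 CPM in the E18.5 libraries. E16.5 replicate 2 was below every other library, and the other E16.5 libraries above every E18.5 library. The log2 change was -0.27 ± 0.24 (adjusted p = 0.739, edgeR), and without E16.5 replicate 2 it was -0.51 (adjusted p = 0.0768, the lowest over the alternatives, with 0.987 the highest).

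Prim1, the small subunit that makes RNA primers, was also highest in E16.5 replicates 1 and 3. Values of Prim1 were 31.3, 22.9 and 33.2 CPM in the E16.5 libraries, against 28.4, 23.4 and 22.0 CPM in the E18.5 libraries. E16.5 replicate 2 lay among the E18.5 libraries. Its log2 change was -0.24 ± 0.18 (adjusted p = 0.693, edgeR), and -0.39 without E16.5 replicate 2 (adjusted p = 0.157, the lowest over the alternatives, with 0.985 the highest). Polymerase epsilon (Pole) and the subunits of polymerase alpha (Pola1, Pola2) had log2 changes of -0.088 ± 0.20, 0.029 ± 0.16 and -0.10 ± 0.18, and the large primase subunit Prim2 one of 0.011 ± 0.30. Prim1 made up 78.7% to 89.4% of the FPKM of the primase pair over the 6 libraries, and Pola1 20.2% to 25.7% of the pair Pola1 and Pola2.

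Pcna, the sliding clamp, was the most abundant member per length (14.6 FPKM). Pcna stood at 22.1, 46.4 and 25.2 CPM at E16.5, then at 38.7, 41.6 and 45.8 CPM at E18.5. In E16.5 replicates 1 and 3 it lay below every E18.5 library, while E16.5 replicate 2 was the highest of all. The log2 change was 0.43 ± 0.26 (adjusted p = 0.631, edgeR). Without E16.5 replicate 2 it was 0.83 with an adjusted p of 0.0380 (edgeR), the lowest over the alternatives tried (highest 0.971). That fit called 371 of all genes, against 30 in the main fit. The processed pseudogene Pcna-ps2, 99.2% identical over 781 bases, held 27.1% of the counts of Pcna, and the sum of both gave a log2 change of 0.45 (adjusted p = 0.613).

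Rfc3 is a subunit of the loader that opens and places the clamp. Rfc3 was at 23.0, 17.6 and 20.8 CPM in the E16.5 libraries, against 16.9, 15.4 and 16.3 CPM in the E18.5 libraries. Rfc3 did not overlap between the stages, and the log2 change was -0.34 ± 0.15 (adjusted p = 0.530, edgeR). Rfc4 and Rfc5, subunits of the same loader, had log2 changes of 0.056 ± 0.21 and 0.031 ± 0.19, and their difference from Rfc3 was not tested. These overlap Eif4a2 and Wsb2 on the other strand, which held 1921% and 244% of their counts.

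Fen1, the nuclease that trims Okazaki fragments, showed the widest range of all members, 6.90-fold, with 1 library far below the rest; it is described outside the rule for named genes, after its values were seen. Values of Fen1 were 17.4, 19.4 and 2.81 CPM in the E16.5 libraries, against 13.0, 16.8 and 9.95 CPM in the E18.5 libraries. Gm10143, an antisense gene that covers 1909 of its exonic bases, showed the reverse: 1.56, 2.94 and 19.4 CPM in the E16.5 libraries, against 3.75, 3.98 and 5.68 CPM in the E18.5 libraries. Summed, the pair was at 18.9, 22.3 and 22.2 CPM at E16.5, then 16.7, 20.8 and 15.6 CPM at E18.5. The sum spans 1.43-fold, and its log2 change was -0.26 ± 0.16 (adjusted p = 0.636, edgeR), against 0.0036 ± 0.57 for Fen1 alone and -0.48 for Fen1 without E16.5 replicate 3. Lig1, the ligase that then seals the nick, was steady: 30.3, 30.6 and 36.5 CPM in the E16.5 libraries, against 32.4, 30.4 and 30.0 CPM in the E18.5 libraries. Its log2 change was -0.069 ± 0.13.

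**Figure D3:**
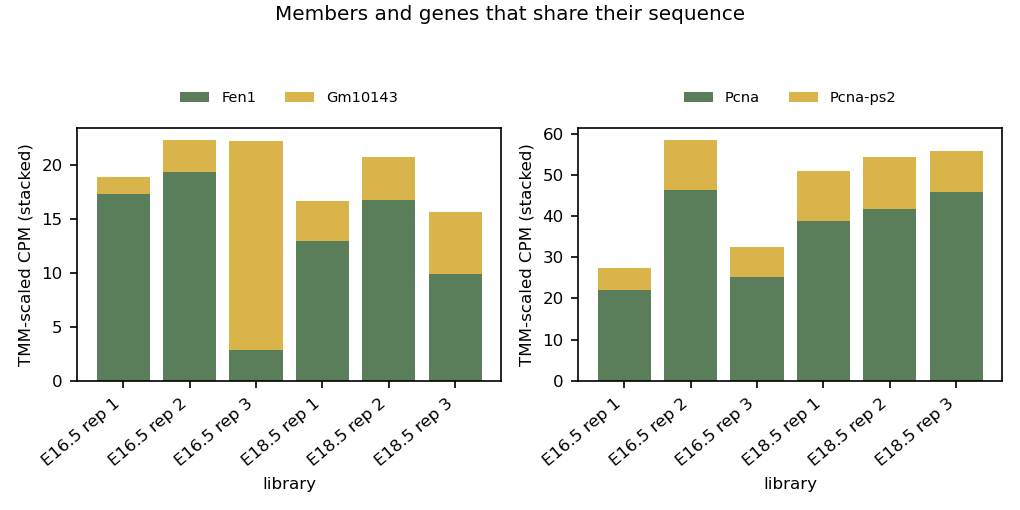
Stacked bars of TMM-scaled CPM in each library for Fen1 with the antisense gene Gm10143 (left) and Pcna with its pseudogene Pcna-ps2 (right). In E16.5 replicate 3 Fen1 is at 2.81 CPM and Gm10143 at 19.4 CPM while the height of the stack is like that of the other libraries. Pcna-ps2 is lowest in E16.5 replicate 1, as Pcna is.

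Ribonucleotide reductase makes deoxynucleotides, and its subunit Rrm2 spanned 2.97-fold over the libraries and Rrm1 1.49-fold. Rrm2 stood at 9.09, 27.0 and 10.4 CPM at E16.5, then at 14.8, 22.9 and 22.3 CPM at E18.5. E16.5 replicate 2 was again the highest library and the other E16.5 libraries the lowest. The log2 change was 0.37 ± 0.40 (adjusted p = 0.786, edgeR), and 1.04 without E16.5 replicate 2 (adjusted p = 0.0560, the lowest over the alternatives, with 0.989 the highest). Rrm1 was at 56.4, 75.8 and 50.7 CPM in the E16.5 libraries, against 56.0, 68.0 and 68.7 CPM in the E18.5 libraries. Rrm1 was also highest in E16.5 replicate 2, with a smaller range, but its lowest library was E16.5 replicate 3. Its log2 change was 0.076 ± 0.18, or 0.26 without E16.5 replicate 2.

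The libraries highest in Rrm2 and Pcna, E16.5 replicate 2 and E18.5 replicates 2 and 3, had the lowest mitochondrial shares and the highest erythroid sums. The match was not complete, as E18.5 replicate 1 had Pcna at 38.7 CPM beside the lowest erythroid sum. E16.5 replicate 3 had an erythroid sum near that of E18.5 replicate 2 but low Rrm2 and Pcna (10.4 and 25.2 CPM). Hba-a1 was the largest part of that sum in each library, and the markers did not share an order. Hbb-bs and Alas2 were at 359 and 27.0 CPM in E16.5 replicate 3, against 2634 and 59.9 CPM in E18.5 replicate 2. Slc4a1 went the other way, at 10.97 and 7.16 CPM in these libraries. Summed over 9 of 10 erythroid markers in the table, of which none was at 0, values were 9421, 23790 and 15493 CPM in the E16.5 libraries, against 8993, 16707 and 21108 CPM in the E18.5 libraries. Mitochondrial shares in the same order were 41.4%, 19.9% and 35.0%, then 33.5%, 26.7% and 25.2%. Actc1, Pln and Emcn, markers of other cell types, were also highest in E16.5 replicate 2 and E18.5 replicates 2 and 3. Actc1 was at 1135, 2360 and 1146 CPM at E16.5, then at 1981, 2610 and 2927 CPM at E18.5. Others differed, as Tnnt2 and Myh6 were lowest in E16.5 replicate 2. The part of red cells or of other cells in the values of Rrm2 and Pcna was not tested. With the mitochondrial share as a term, the log2 change was 0.24 for Rrm2 and 0.33 for Pcna, with adjusted p of 0.450 and 0.199 (edgeR).

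Chaf1b, like Pold1, was lowest in E16.5 replicate 2 and highest in the other E16.5 libraries. Values of Chaf1b were 30.2, 17.3 and 30.5 CPM in the E16.5 libraries, against 26.2, 20.2 and 18.4 CPM in the E18.5 libraries. The log2 change of Chaf1b was -0.27 ± 0.24 (adjusted p = 0.744, edgeR), and that of its partner Chaf1a -0.10 ± 0.18. Without E16.5 replicate 2 they were -0.49 and -0.26, with adjusted p of 0.134 and 0.251, the lowest over the alternatives (highest 0.987 and 0.998). Chaf1a shares 4648 exonic bases with Ubxn6 on the other strand, a gene with 79.5% of its counts. Ubxn6 had a log2 change of -0.54 ± 0.15, without overlap between stages, and its part in the values of Chaf1a was not tested. Uhrf1 stood at 27.6, 39.3 and 35.6 CPM at E16.5, then at 34.5, 42.2 and 35.8 CPM at E18.5. Uhrf1, which recruits the DNA methyltransferase to hemimethylated sites, overlapped between stages and had a log2 change of 0.13 ± 0.16.

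Genes that drive entry into S phase showed no shared direction. E2f1, an activator, and E2f8, a repressor of the same targets, both overlapped between stages. E2f1 was at 8.05, 9.82 and 12.9 CPM in the E16.5 libraries, against 9.27, 11.3 and 10.2 CPM in the E18.5 libraries. Values of E2f8 were 21.8, 21.5 and 20.0003 CPM in the E16.5 libraries, against 17.3, 21.6 and 22.5 CPM in the E18.5 libraries. Their log2 changes were -0.0027 ± 0.21 and -0.043 ± 0.15, and E2f1 made up 45.2% ± 6.95 of their summed FPKM at E16.5 and 46.4% ± 2.26 at E18.5 (SD, n = 3).

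Cyclin E activates Cdk2 at the start of S phase and comes in a pair of forms. Ccne1 stood at 6.84, 6.87 and 5.26 CPM at E16.5, then at 5.78, 6.54 and 7.19 CPM at E18.5. Ccne1 had a log2 change of 0.04 ± 0.20. Ccne2 was at 6.06, 6.26 and 7.14 CPM in the E16.5 libraries, against 7.65, 12.7 and 6.63 CPM in the E18.5 libraries. E18.5 replicate 2 alone was far above the rest of Ccne2, and the log2 change of 0.47 ± 0.26 (adjusted p = 0.596, edgeR) was 0.14 without that library. Ccne2 shares exons with Ints8 on the other strand, which held 556% of its counts. Dtl and the checkpoint mediator Clspn had log2 changes of -0.046 ± 0.17 and -0.0028 ± 0.16.

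**Figure D4:**
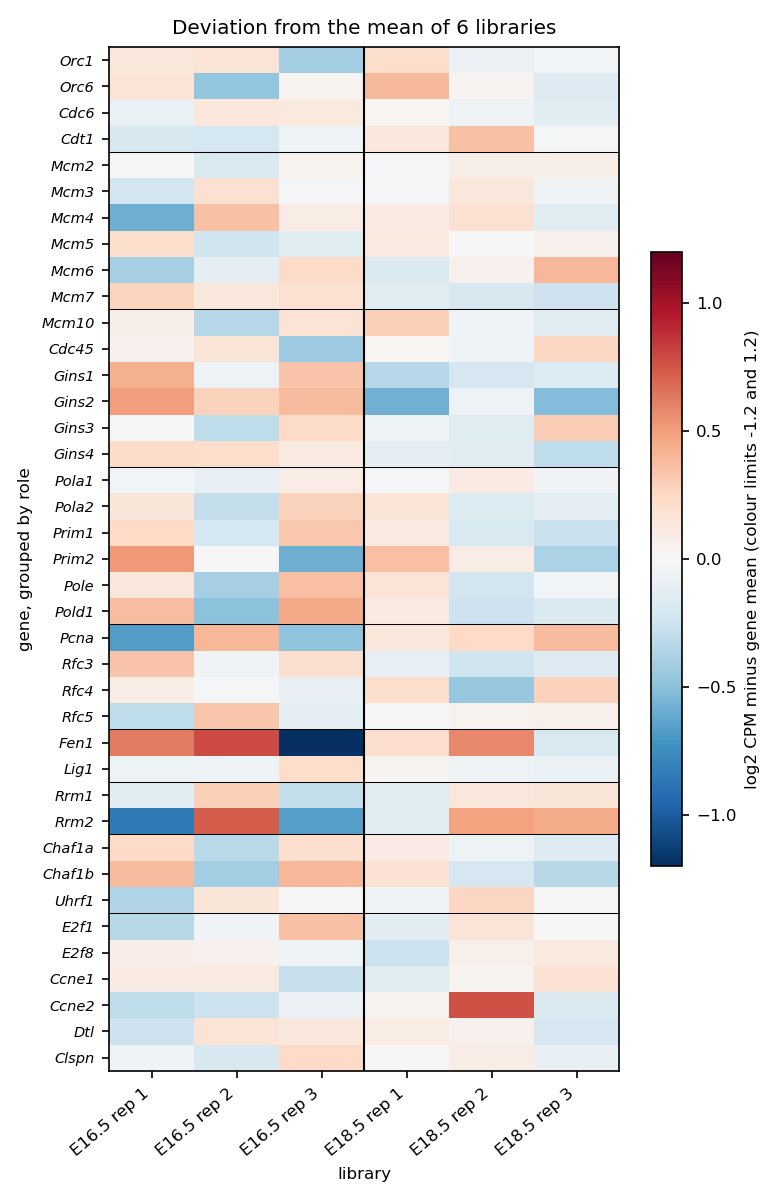
Deviation of each gene's log2 CPM from its mean over 6 libraries, by library (columns, E16.5 left of the line) and by role (rows); the value of Fen1 in E16.5 replicate 3 lies beyond the colour limits. E16.5 replicate 2 is high for Rrm2 and Pcna and low for Pold1 and Chaf1b, and only Gins1, Gins2, Gins4, Mcm7, Rfc3 and Cdt1 separate by stage.

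Across the 39 genes, the highest library exceeded the lowest 1.53-fold at the median, against 1.56-fold for the 9270 genes tested with a mean CPM in the same range, 4.65 to 62.6. Pola1 had the narrowest range, 1.15-fold. E16.5 replicate 2 was the lowest library for 13 members and the highest for 9, which is 33.3% and 23.1%, against 18.2% and 19.2% of all genes tested. E18.5 replicates 1, 2 and 3 were the highest library for 7.69%, 12.8% and 15.4% of the members, against 13.5%, 13.7% and 14.6% of all genes, and the lowest for 7.69%, 5.13% and 12.8%, against 13.5%, 14.6% and 12.9%.

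Other genes of DNA replication, a list of 51 written by function with earlier results of these data known, were read from the same fit. Of these, 0 passed over all genes (edgeR and DESeq2), while an unadjusted p under 0.05 was reached by 1 higher and 0 lower genes, with a median log2 change of -0.04, and 20 above and 31 below 0. The 1 was Cdc25a, a phosphatase that activates Cdk2, at 18.8 to 21.6 CPM in E16.5 libraries, against 23.7 to 26.3 CPM in E18.5 libraries, and the log2 change was 0.36 ± 0.13 (adjusted p = 0.450, edgeR). Slbp, which binds histone messenger RNA, was also without overlap, at 34.8 to 50.5 CPM and then 51.5 to 54.3 CPM (log2 change 0.35 ± 0.16). Top2a, the topoisomerase that untangles copied DNA, was without overlap in the other direction, at 98.5 to 124 CPM and then 84.7 to 95.0 CPM (log2 change -0.29 ± 0.14). Rpa3, a subunit of the single-strand binding protein, had a log2 change of -0.32 ± 0.16, Cdk2 one of 0.34 ± 0.20 and cyclin A2 (Ccna2) one of -0.045 ± 0.20. In all, 4 of the 51 had every E18.5 library above E16.5 (7.84%, against 8.45% of all genes) and 3 the opposite order (5.88%, against 8.02%), both near the share of all genes.

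Genes of mitosis, 30 chosen by function with earlier results of these data known, were set beside them. S phase and mitosis belong to the same cycle. None passed over all genes in edgeR or DESeq2, an unadjusted p under 0.05 was reached by 10 lower genes (33.3%, against 4.7% of all genes) and 0 higher genes, and the median log2 change was -0.22. In 12 of the 30 every E16.5 library lay above every E18.5 library, an order seen in 8.02% of all genes. Cks2, a partner of Cdk1, had a log2 change of -0.60 ± 0.17, the kinetochore genes Cenpf and Cenpe -0.46 ± 0.13 and -0.59 ± 0.18, and Cdca3 -0.67 ± 0.21, with adjusted p from 0.303 to 0.366 (edgeR). Without E16.5 replicate 2, 3 mitotic genes were called, all lower, and 371 of all genes were called, against 30 in the main fit. The difference between the mitotic and the replication lists was not tested.

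By library, the median deviation of the 39 genes from the mean of all libraries was 0.07, -0.04 and 0.09 in the E16.5 libraries, against 0.03, 0.03 and -0.08 in the E18.5 libraries, on the log2 scale. The stages overlapped in this measure. For the mitotic genes it was 0.19, 0.11 and 0.04 at E16.5, then -0.19, -0.10 and 0.0062 at E18.5, without overlap. Summed fibroblast and mural markers, all 10 detected, were at 2533 to 3604 CPM at E16.5 and 4032 to 4964 CPM at E18.5, and 8 epicardial markers at 101 to 122 CPM and 172 to 225 CPM. Log2 changes of the fibroblast and mural markers, all above 0, ran from 0.056 ± 0.15 (Pdgfra) to 0.79 ± 0.27 (Col1a1). Cardiomyocyte markers (27836 to 34815 CPM, then 31572 to 38561 CPM) and leukocyte markers (69.1 to 77.1 CPM, then 67.7 to 90.2 CPM) overlapped. Endothelial and endocardial markers overlapped too, at 661 to 820 CPM, then 754 to 846 CPM. The part of cell makeup in any member's values was not tested.

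**Figure D5:**
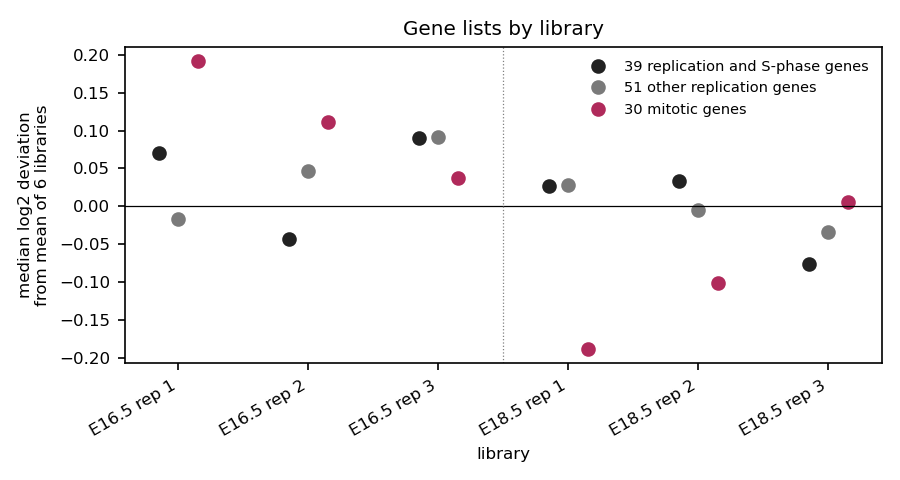
Median log2 deviation from the mean of 6 libraries, for the 39 replication and S-phase genes, 51 other replication genes and 30 mitotic genes, by library. Mitotic genes lie above 0.03 in the E16.5 libraries and below 0.01 in the E18.5 libraries, while the replication lists overlap between stages.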

How the data were processed

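Each library was made from polyadenylated RNA, per the labels' protocols, with strand-marking dUTP and molecular identifiers. The submitters' processing notes name the build mm9 and, without their roles, StringTie 1.3.4d, HISAT2 2.0.4, UMI-tools and cutadapt 1.9. The authors deposited 1 table, which holds for every gene and library its estimated count beside its FPKM, per the column names. The sources used here do not give whether counting used strand or identifiers. In all, 13 members share exonic bases with a gene on the other strand, which for 10 of them held at least 40% of the member's counts. Besides those described above, these are Orc6 (Vps35, 98.6%), Cdc45 (Ufd1, 447%) and Lig1 (Zswim9, 40.8%). Most deposited coordinates differ from GRCm38 (524 of 29874 genes coincide), so positions come from GENCODE M21 by gene identifier.

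Counts were rounded, filtered (filterByExpr, 19959 genes) and scaled by TMM, and edgeR 4.0.16 (R 4.3.3) tested E18.5 against E16.5 (quasi-likelihood, two-sided, Benjamini-Hochberg adjustment over all genes tested, threshold 0.05). The same fit was run on simulated counts with planted changes larger than that of any member. That run does not tell whether changes of the members' size would be found. Orc1, the member with the fewest counts, had 239 to 419 in a library; the lowest single value was 193, for Fen1 in E16.5 replicate 3. DESeq2 1.42.0, limma 3.58.1 on log2(FPKM + 1), other scalings and fits without a library were alternatives. The 39 genes and the other lists were chosen with earlier results of these data known. Values are given per library for the 12 members with the smallest p, the member highest in FPKM of each role, cyclin E, E2f1, E2f8, Rrm1, Rrm2, Pcna and Mcm2 to Mcm7, and for others as log2 changes. Of the other replication genes, the 6 with the smallest p, Cdk2 and Ccna2 are named. Overlapping genes, copies and Fen1 were chosen after their values were seen, and so were the sums with Gm10143 and Pcna-ps2. The labels do not say that replicate numbers pair the samples, so the main fit did not pair them.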

Additional observations from a re-analysis of the deposited data

How the results depend on the processing

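Over the 14 alternatives and the 2 sums with Gm10143 and Pcna-ps2 chosen after seeing the data, 475 of 548 member values kept their direction and side of the threshold, 71 changed sign and 2 passed the threshold; 22 of 39 members changed sign at least once. Of all genes, 30 were called, against 343 by DESeq2, 184 with the mitochondrial share as a term, 10 and 16 by limma on log2(FPKM + 1) and log2(FPKM + 0.1), and 8 (without E16.5 replicate 3) to 371 (without E16.5 replicate 2) with 1 library left out. Members called were 1 by DESeq2 (Gins2) and 0 to 1 with a library left out (Pcna, without E16.5 replicate 2), and mitotic genes 0 to 3 (the 3 without E16.5 replicate 2). The median of the members was 0.1418 on log2(FPKM + 0.1), where that of all genes was 0.1173, and 0.08621 on log2(FPKM + 1), where that of all genes was 0.0829; on both, 30 members lay above 0 and 9 below. The cause was not tested.

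Signs turned with the mitochondrial share as a term for Fen1 (-0.04584), Pola2 (0.002536), Pole (0.04032), Chaf1a (0.01895), Clspn (0.03693), Mcm3 (-0.01467), Mcm4 (-0.0108), Rfc5 (-0.0413) and Rrm1 (-0.004131). On log2(FPKM + 1) and log2(FPKM + 0.1) they turned for Pola2 (0.01499 and 0.02), Pole (0.03127 and 0.04238), Lig1 (0.03441 and 0.04145), Chaf1a (0.01839 and 0.02422), E2f1 (0.08621 and 0.1216), E2f8 (0.0434 and 0.05361), Dtl (0.02231 and 0.05753) and Clspn (0.07625 and 0.1074). Fen1 gave -0.003897 with RLE scaling, -0.003799 by DESeq2, -0.005439 without mitochondrial genes and -0.2585 with Gm10143 added, which was chosen after seeing the data. With 1 library left out, log2 changes ran from -0.4837 to 0.3936 for Fen1, -0.2455 to 0.01248 for Pola2, -0.274 to 0.07578 for Pole, -0.1258 to 0.01401 for Lig1, -0.1582 to 0.1865 for E2f1, -0.1155 to 0.05495 for E2f8, -0.1766 to 0.0393 for Dtl, -0.09283 to 0.1142 for Clspn, -0.06925 to 0.1463 for Mcm3, -0.1784 to 0.2664 for Mcm4, -0.1096 to 0.2342 for Rfc5 and -0.04966 to 0.2644 for Rrm1. They ran from -0.1181 to 0.1524 for Orc1, -0.07455 to 0.1623 for Mcm10, -0.03643 to 0.2533 for Cdc45, -0.08178 to 0.1906 for Gins3, -0.0152 to 0.07166 for Pola1, -0.2323 to 0.309 for Prim2, -0.07461 to 0.2538 for Rfc4, -0.009301 to 0.247 for Uhrf1 and -0.08622 to 0.1093 for Ccne1.

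The replicate block called 43 genes in all and 0 members, with E2f1 at 0.01975 and Clspn at 0.006249. Same-numbered libraries correlated at 0.069, 0.142 and -0.064 in their deviations. E16.5 replicates 1 and 2 each correlated best with the E18.5 library of their own number. E16.5 replicate 3 correlated best with E18.5 replicate 1 (0.139), not with its own number.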

Other observations

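Summed over the 39 genes, CPM differed by 1.09-fold between the highest and the lowest library, and summed FPKM, as the authors deposited it, by 1.54-fold. The FPKM sum was 155 in E16.5 replicate 1, where mitochondrial genes took 41.4% of the counts, and 238 in E16.5 replicate 2, where they took 19.9%. The part of the mitochondrial share in the FPKM values was not tested.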
